A study of Rattus norvegicus with 6 samples.

Results

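The complement genes described here are 36 named components, receptors and regulators of the complement system, chosen by symbol, among 37203 gene rows counted in rat alveolar tissue. All 36 had a row, and 29 of them passed a filter on low counts and could be tested. RNA came from alveolar tissue, which holds the tooth roots in the jaw, of rats whose teeth were moved orthodontically with or without corticision, a surgical cut into the cortical bone. The libraries titled case 5, case 6 and case 9 carry a source field of tooth movement without corticision, and those titled control 5, control 6 and control 10 one of tooth movement with corticision. Titles and source field thus run against each other in their usual sense, so groups are named by title and differences are case minus control. Tooth movement is common to both groups, and no library of unmoved teeth was analysed here. Strain, sex, age, time after surgery and whether each library came from its own animal are not given in the labels, so a p-value here sets a difference against the spread among the libraries at hand, part of which may be technical.

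Complement is a cascade of proteins that tags microbes, immune complexes and dying cells. It is started by the classical route (C1q with the proteases C1r and C1s), by the lectin route (ficolins and other lectins with the MASP proteases) or by the alternative route, and all of them cleave C3. Cleavage of C3 and C5 releases the small peptides C3a and C5a, which act on receptors of leukocytes, and C5b starts the assembly of C6, C7, C8 and C9 into a membrane pore, while inhibitors protect the body's own cells. Much of the plasma protein is made in the liver, but macrophages, neutrophil precursors, fibroblasts and fat cells make single components locally, and cells of bone carry receptors for C3a and C5a.

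Library totals ran from 10886303 to 14433740 counts. Defining genes of bone were abundant, as the tissue label has it: Col1a1, the main chain of type I collagen, was at 36039 to 74749 CPM (counts scaled to library size) and the osteoblast gene Bglap at 2422 to 5976 CPM. Both libraries numbered 5 stood apart from the rest in genes of tooth-forming cells, and control 5 alone in those of the oral epithelium. Genes of tooth-forming cells summed to 459.6 CPM in case 5, 89.8 in control 5 and 0.640 to 7.79 in the others, and genes of the oral epithelium to 3583 CPM in control 5 and 21.8 to 51.4 in the others. Case 6 was apart in summed red cell genes (700.7 against 2503 to 8271 CPM) and fat cell genes (502.9 against 137.4 to 257.0 CPM). Neutrophil and macrophage markers were lowest in both libraries numbered 5. The mean log2 CPM of 11 neutrophil markers was 8.72 in case 5 and 8.33 in control 5 against 8.84 to 9.52 elsewhere, and that of 10 macrophage markers was 6.49 and 6.29 against 6.75 to 7.01. Less RNA per cell and fewer cells of a type cannot be told apart in such bulk samples.

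Reads of complement genes made up a small part of each library. The 36 genes took 0.389%, 0.583% and 0.706% of all counts in the case libraries 5, 6 and 9 and 0.381%, 0.468% and 0.461% in the control libraries 5, 6 and 10. Case 5 thus lay next to control 5 at the bottom, and case 6 and case 9 at the top. Fcnb alone took from 16.4% (control 10) to 30.2% (case 9) of these counts, and without it the shares were 0.318%, 0.463% and 0.493% in case and 0.310%, 0.387% and 0.385% in control.

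None of the complement genes passed. By edgeR's quasi-likelihood test, 0 of the 29 were called at a Benjamini-Hochberg adjusted p under 0.05, with a smallest adjusted p of 0.999, where it called 0% of all 16066 tested genes. DESeq2 called 0 of the 29 (0.131% of all genes) and limma-voom 0 (0% of all). At an unadjusted p under 0.05 edgeR gave 1 complement gene, Cfd (4.15% of all genes), DESeq2 gave 3, Cfd, Fcnb and C1qc (4.6% of all), and limma-voom 1, Cfd (3.65% of all). Of the 29 genes 15 had a positive and 14 a negative log2 fold change, where 53.7% of all genes were negative. Their median was 0.11, beside -0.024 over all tested genes, and the middle part of the list ran from -0.18 (lower quartile) to 0.41 (upper quartile). The groups did not overlap in 3 of the 29 genes (8.47% of all genes): the case libraries lay above the control libraries in Cfd (4.05% of all genes) and below them in C5ar2 and Cd59 (4.42% of all genes).

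Some of these counts changed when single libraries were left out. At an unadjusted p under 0.05 edgeR gave 7 of the 29 genes without case 5 (9.54% of all genes), which were C1qb, C1qc, Fcna, Fcnb, Cfd, Cfp and C5ar1, all higher in case. It gave 3 without control 5 (7.32% of all), 4 without control 6 (4.23% of all) and 0 without case 6 (2.23% of all). The count stayed at 1 without case 9 (473 of all 16676 tested genes) and at 1 without control 10 (401 of all 16617). Without control 10 the negative genes numbered 9 in place of 14. Without both libraries numbered 5 there were 8 genes (14.1% of all): C1qb, C1qc, Fcnb, Cfd and Cfp higher and C4a, Masp1 and Cd59 lower in case. In that fit the smallest Benjamini-Hochberg adjusted p of a complement gene was 0.205.

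**Figure D1:**
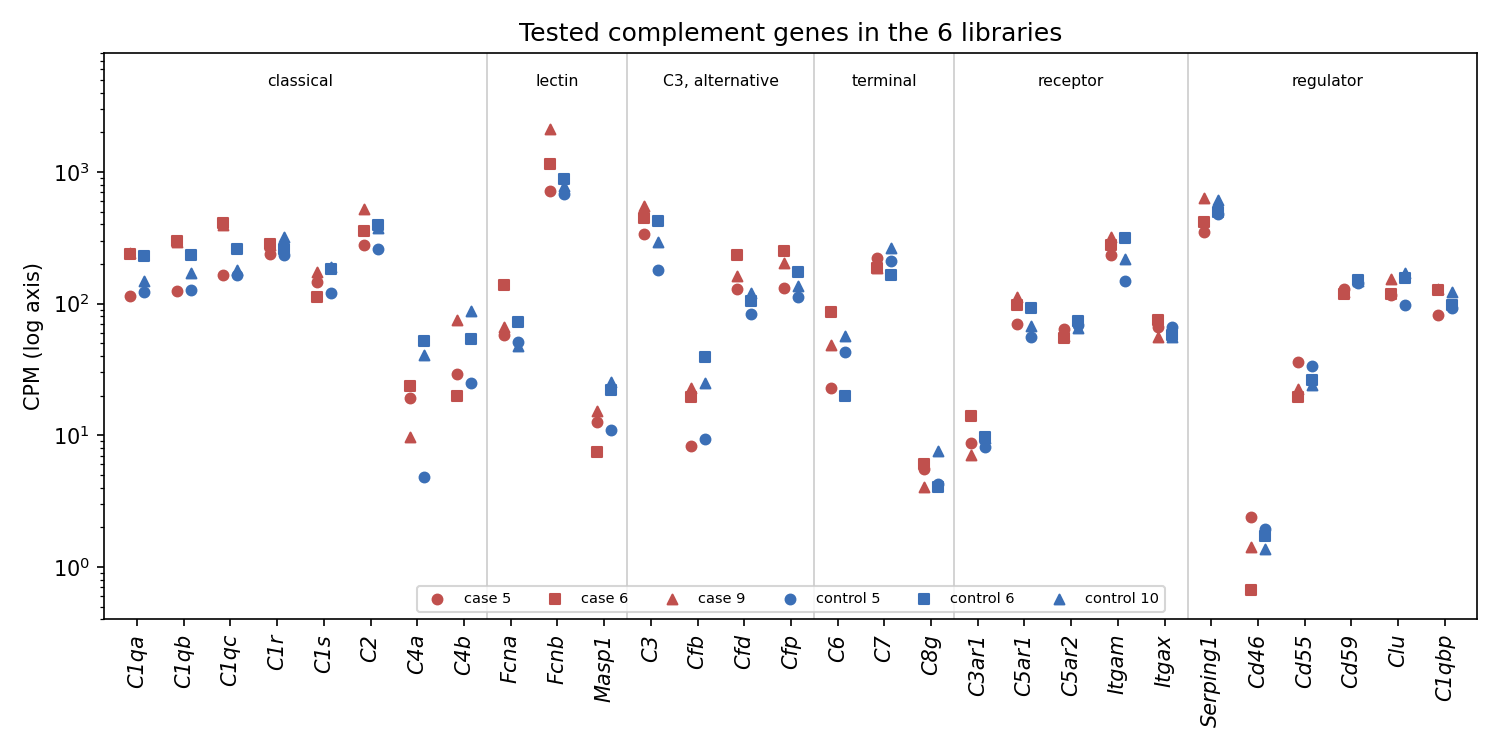
CPM on a log axis of the 29 tested complement genes in each of the 6 libraries, grouped by role, with case in red and control in blue. The points of both groups stand apart in Cfd, C5ar2 and Cd59 and mix in the other genes.

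**Figure D2:**
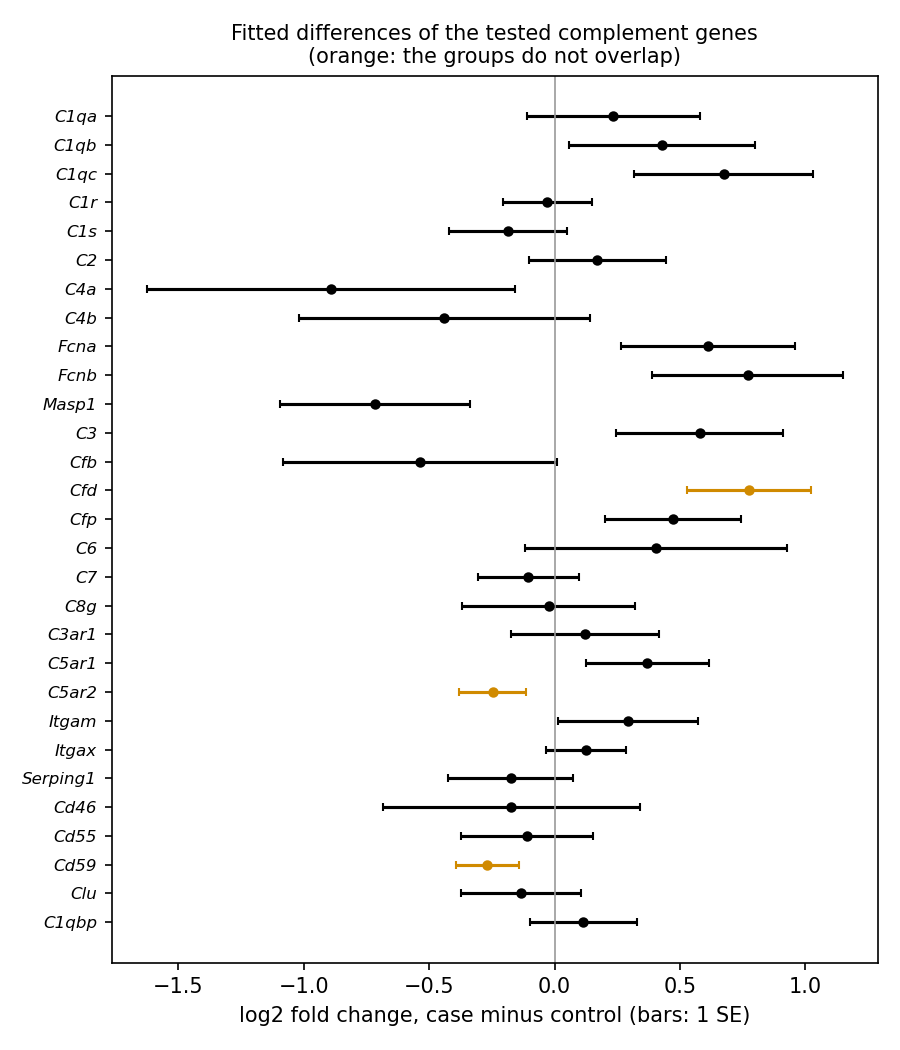
Fitted log2 fold change, case minus control, with bars of 1 SE, for the same genes. Values run from -0.89 (C4a) to 0.77 (Cfd), and C5ar2 and Cd59 have the shortest bars.

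The classical route begins with C1q, a bundle of A, B and C chains that binds antibody and dying cells and is made mainly by macrophages. Its genes C1qa, C1qb and C1qc lie side by side in the rat genome (RefSeq, assembly GRCr8). C1qa was at 113.3, 237.9 and 240.2 CPM in the case libraries 5, 6 and 9 and at 122.9, 231.6 and 148.3 in the control libraries 5, 6 and 10. C1qb was at 124.1, 299.7 and 293.4 CPM in the case libraries and at 126.9, 235.7 and 170.4 in the controls. C1qc was at 165.6, 406.1 and 396.5 CPM in the case libraries and at 164.4, 261.0 and 181.3 in the controls. The 3 chains shared one order of libraries in outline: case 6 and case 9 were highest, control 6 came next, then control 10, and both libraries numbered 5 were lowest. The groups overlapped in each chain, as in C1qc (323 ± 136 against 202 ± 51.6 CPM, SD, n = 3 in each group here and below; log2 fold change 0.67, SE 0.36, unadjusted edgeR p 0.0993, and 1.02 without case 5). The summed chains were at 403, 943.6 and 930.1 CPM in the case libraries and at 414, 728 and 500.04 in the controls. Beside them, the mean log2 CPM of the macrophage markers was 6.49, 7.01 and 6.86 in the case libraries and 6.29, 6.82 and 6.75 in the controls, with Marco at 0 in all libraries. The part of macrophages in the C1q values was not tested.

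While the chains moved together, 1 of their proportions stood apart between the groups. In counts, C1qc stood to C1qa as 1.46, 1.71 and 1.65 in the case libraries 5, 6 and 9 and as 1.34, 1.13 and 1.22 in the control libraries 5, 6 and 10, so that the groups did not overlap. The mean ratio was 1.61 ± 0.128 in case and 1.23 ± 0.105 in control (two-sided exact permutation p 0.1, the smallest that 3 libraries against 3 allow). It was the only one with groups apart among 8 ratios between related genes, which were picked after the counts had been seen, and its Benjamini-Hochberg adjusted p over these was 0.4. C1qb stood to C1qa as 1.02 to 1.26 over the 6 libraries, with overlapping groups. A ratio within a library does not depend on how libraries are scaled to each other.

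**Figure D3:**
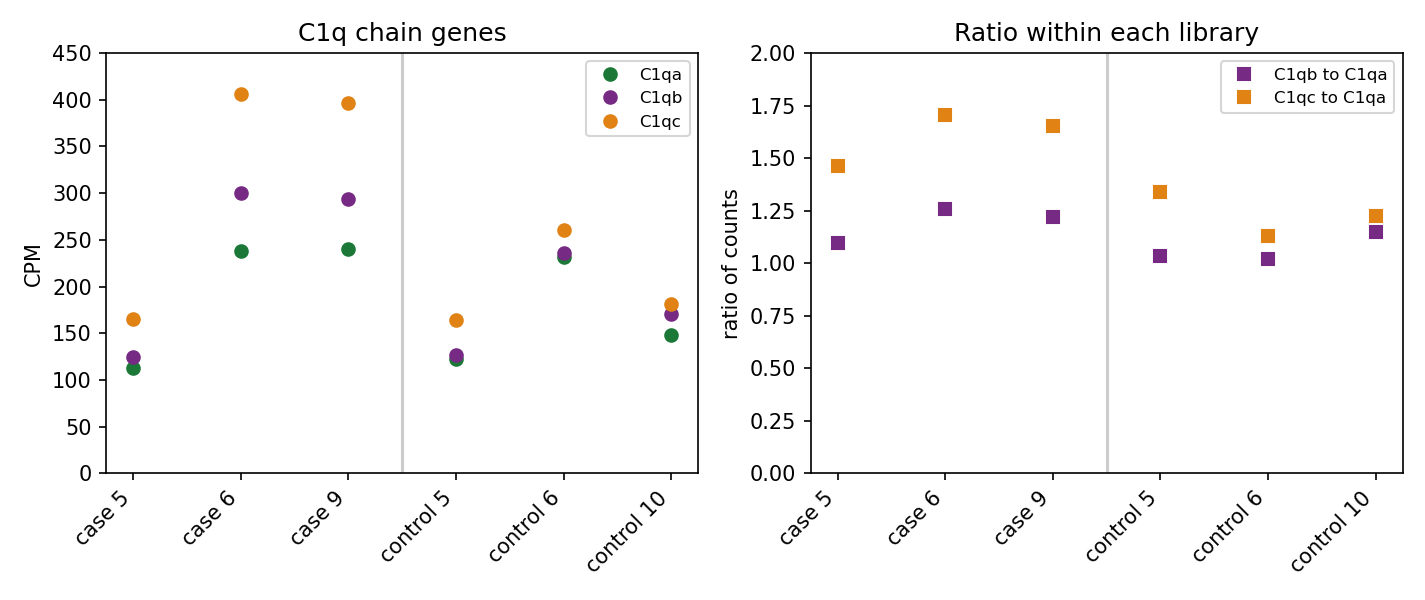
Left, CPM of C1qa, C1qb and C1qc in each library; right, the ratio of C1qb and of C1qc counts to C1qa counts. C1qc to C1qa lies between 1.46 and 1.71 in the case libraries and between 1.13 and 1.34 in the control libraries, and C1qb to C1qa overlaps.

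Because the C1q genes moved together, the 250 bases before the start of C1qa and C1qb are shown, as RefSeq gives them for GRCr8. C1qc has no entry in the table used. Capitals mark matches to GAGGAA, a core bound by the myeloid factor PU.1, or to TTCNNNGAA, a STAT-type site, on either strand.
C1qa (GRCr8 chr5:154419934-154420183, minus strand): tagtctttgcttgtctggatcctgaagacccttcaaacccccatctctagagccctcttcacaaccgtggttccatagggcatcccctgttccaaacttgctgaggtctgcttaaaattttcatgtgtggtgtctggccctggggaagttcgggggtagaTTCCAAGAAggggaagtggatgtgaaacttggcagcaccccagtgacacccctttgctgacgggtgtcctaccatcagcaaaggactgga
C1qb (GRCr8 chr5:154407828-154408077, minus strand): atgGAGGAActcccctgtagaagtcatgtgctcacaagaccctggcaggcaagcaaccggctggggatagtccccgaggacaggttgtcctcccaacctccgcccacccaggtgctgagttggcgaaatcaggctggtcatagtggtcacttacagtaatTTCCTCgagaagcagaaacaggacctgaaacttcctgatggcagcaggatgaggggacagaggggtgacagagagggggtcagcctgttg
In C1qb, GAGGAA matched at bases -247 to -242 on the plus strand and -90 to -85 on the minus strand, counted back from the start. C1qa had the STAT-type letters at -90 to -82 and no GAGGAA. Among all 33469 promoter windows of this length 23.3% held GAGGAA and 7.67% held TTCNNNGAA, and of the 24 complement genes with an entry 7 and 5 did. A match describes letters only.

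The C1 proteases showed a different order of libraries from the C1q chains. C1r, which activates C1s, was at 239.8, 283.4 and 276.6 CPM in the case libraries and at 232.6, 260.8 and 323.2 in the controls. C1s, which cleaves C4 and C2, was at 146.4, 113.02 and 173.7 CPM in the case libraries and at 120.3, 182.1 and 189.9 in the controls. Both were highest in control 10, and the groups overlapped in both. C1s is next to C1r in the genome, yet stood to it as 0.399 in case 6 and as 0.698 in control 6. C2, the protease of the classical C3 convertase, was at 280.1, 357.7 and 522.01 CPM in the case libraries and at 261.1, 396.9 and 372.6 in the controls, with case 9 the highest. Serping1, the inhibitor that removes C1r and C1s from C1, was at 351.1, 419.5 and 630.3 CPM in the case libraries and at 476.01, 499.1 and 606.7 in the controls, and its groups overlapped.

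C4, whose large fragment forms the convertase together with C2, is encoded in the rat by the copies C4a and C4b. C4a was at 19.1, 23.7 and 9.67 CPM in the case libraries 5, 6 and 9 and 4.81, 51.9 and 40.9 in the control libraries 5, 6 and 10. C4b was at 29.2, 19.8 and 74.7 CPM in the case libraries and at 25.1, 53.9 and 88.6 in the controls. The copies did not follow each other: C4b stood to C4a as 0.835 in case 6, 1.04 in control 6, 1.53 in case 5, 2.17 in control 10, 5.22 in control 5 and 7.73 in case 9. This spread of 9.26-fold was the widest of the 8 ratios. The sum of both was 48.3, 43.6 and 84.4 CPM in the case libraries and 29.9, 105.8 and 129.4 in the controls, so that control 6 and control 10 lay above all case libraries and control 5 below them. C4a had the largest negative log2 fold change of the 29 genes (-0.89, SE 0.74, unadjusted edgeR p 0.263). Without control 5 it was -1.40 (p 0.00658, adjusted p 0.495), without control 6 it was -0.36, and with the title number as a block it was 0.32.

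The windows before the starts of the copies are shown to let their likeness be seen. Capitals mark bases that differ or face a gap within the aligned stretch; ends that hang over it are left in lower case.
C4a (GRCr8 chr20:4010107-4010356, plus strand): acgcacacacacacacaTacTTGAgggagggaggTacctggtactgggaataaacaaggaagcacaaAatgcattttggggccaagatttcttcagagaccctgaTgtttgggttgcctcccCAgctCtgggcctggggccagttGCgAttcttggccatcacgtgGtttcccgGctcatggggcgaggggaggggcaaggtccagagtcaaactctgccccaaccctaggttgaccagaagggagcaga
C4b (GRCr8 chr20:4201729-4201978, plus strand): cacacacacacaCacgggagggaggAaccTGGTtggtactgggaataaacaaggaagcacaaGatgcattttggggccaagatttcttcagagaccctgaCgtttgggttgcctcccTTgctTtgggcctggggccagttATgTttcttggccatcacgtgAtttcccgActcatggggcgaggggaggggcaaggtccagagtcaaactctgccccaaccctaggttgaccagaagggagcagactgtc
Of 241 aligned pairs of bases 229 were identical (95.0%), with 8 further positions opposite a gap. The ficolin genes Fcna and Fcnb, treated the same way, shared 63.1% with 47 positions opposite a gap. The integrin genes Itgam and Itgax shared 62.0% with 36 such positions. What unrelated windows share under this alignment was not measured. How reads that match both C4 copies were counted is not given in the sources used here, so the values of C4a and C4b are each uncertain.

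**Figure D4:**
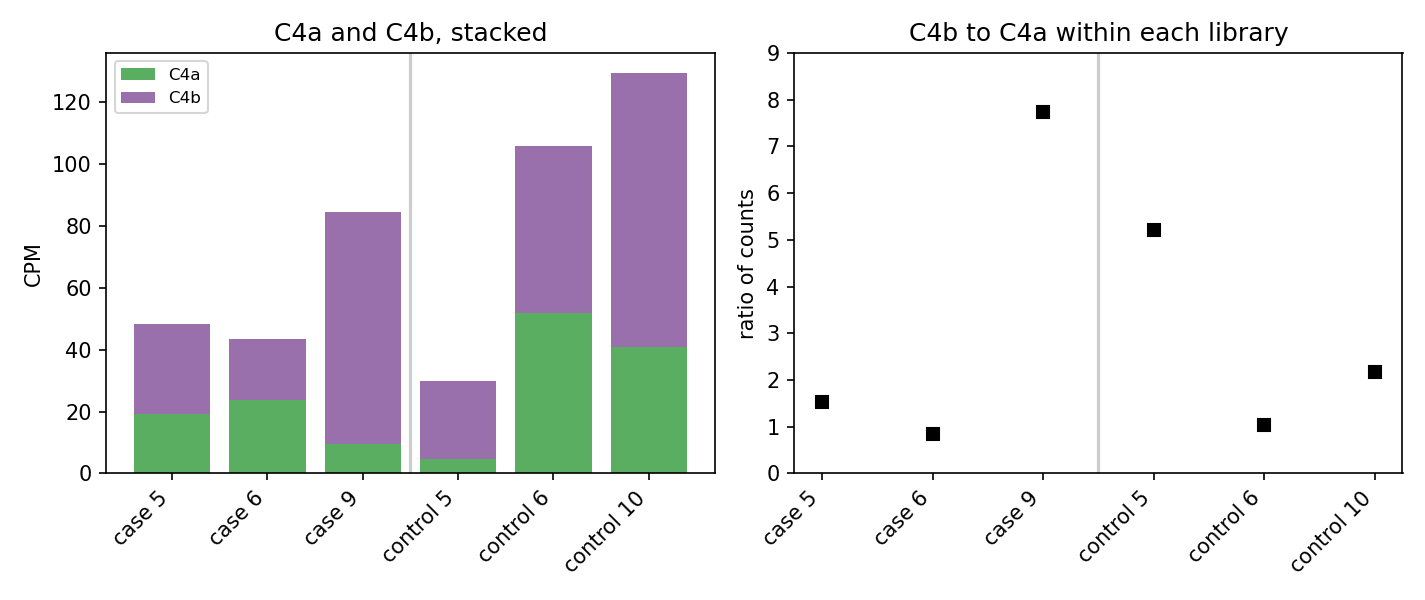
Left, CPM of C4a and C4b stacked for each library; right, the ratio of C4b counts to C4a counts. Control 6 and control 10 have the tallest columns (105.8 and 129.4 CPM), and the ratio is 7.73 in case 9 against 0.835 in case 6.

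On the lectin route, both ficolins were counted in every library. Fcnb, ficolin B, is a sugar-binding recognition protein made by myeloid cells of the marrow. It was at 719.6, 1151 and 2103 CPM in the case libraries 5, 6 and 9 and at 674.4, 877.5 and 779.4 in the control libraries 5, 6 and 10. Case 9 was the highest library and case 5 lay inside the control range (log2 fold change 0.77, SE 0.38, unadjusted edgeR p 0.0799). Without case 9 the log2 fold change was 0.27. Beside it, the mean log2 CPM of the neutrophil markers was 8.72, 9.33 and 9.52 in the case libraries and 8.33, 9.52 and 8.84 in the controls, and its part in the Fcnb values was not tested. Within that list the genes of early granules were higher in case 9 than in control 6, as Fcnb was: Mpo was at 2476 against 1496 CPM, Elane at 711.1 against 406.9 and Prtn3 at 484.4 against 246.7. These 3 genes and this pair of libraries were singled out after their values were seen. Of the other 8 tested markers 3 were higher and 5 lower in case 9 than in control 6. Between case 5 and control 10, Mpo (1392 against 1114 CPM) ran opposite to Fcnb. Elane (224.7 against 247.3) ran with Fcnb there, and Prtn3 was at 130.2 against 129.2. Fcna, ficolin A, known from macrophages of spleen and liver, was at 57.5, 137.4 and 67.0 CPM in the case libraries and at 50.7, 72.7 and 47.9 in the controls. Here case 6 stood above all other libraries, and without it the log2 fold change went from 0.61 to 0.12.

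The MASP proteases, which the ficolins carry, were at low levels. Masp1 was at 12.5, 7.52 and 15.4 CPM in the case libraries and at 10.9, 21.9 and 25.3 in the controls, with control 5 inside the case range (log2 fold change -0.72, SE 0.38, unadjusted edgeR p 0.0977). Without control 10 it was -0.44 and without case 6 -0.47. Of 12 fibroblast and stroma markers 11 had a negative log2 fold change, where 53.7% of all genes did. Their mean log2 CPM was 7.74, 7.39 and 7.58 in the case libraries and 7.64, 7.89 and 8.26 in the controls. Masp1 was highest in control 10 and control 6 and lowest in case 6, as the mean of these markers was. Among the remaining libraries the orders differed. Masp1 was higher in case 9 than in case 5 and control 5, whereas the marker mean was lower in case 9 than in both. The part of stroma in the Masp1 values was not tested. Masp2, which cleaves C4 and C2 on this route, had 0 to 2 counts in 5 libraries and 14 in control 5.

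C3, the protein on which all routes meet, was at 335.2, 449.5 and 555.4 CPM in the case libraries 5, 6 and 9 and 179.4, 424.9 and 292.9 in the control libraries 5, 6 and 10. Control 6 reached into the case range (log2 fold change 0.58, SE 0.33, unadjusted edgeR p 0.124), and without control 6 the value was 0.94 (p 0.0251, adjusted p 0.9997). Without control 5 it was 0.32 (p 0.294).

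Cfd, factor D or adipsin, is the protease that starts the alternative convertase by cleaving factor B, and is known from fat cells. It was at 129.8, 233.96 and 161.8 CPM in the case libraries and at 83.1, 104.1 and 120.0 in the controls. All 3 case libraries lay above all 3 control libraries, at 175.2 ± 53.3 against 102.4 ± 18.5 CPM (log2 fold change 0.77, SE 0.25, or 1.71-fold, unadjusted edgeR p 0.0157, adjusted p 0.999). The difference was 0.51 without case 6 and 0.98 without case 5, and 0.86 without both libraries numbered 5. All 9 tested fat cell markers had a positive log2 fold change, with a median of 0.56, where 53.7% of all genes were negative. By edgeR 0 of them passed at an adjusted p under 0.05 (0% of all genes). Their mean log2 CPM was 3.99, 5.46 and 3.62 in the case libraries and 3.02, 3.72 and 4.20 in the controls, so these groups overlapped. Adipoq, which encodes adiponectin, was at 19.7, 76.5 and 6.81 CPM in the case libraries and at 3.33, 14.6 and 22.3 in the controls. In case 9 Cfd was above every control library, while the mean of the fat cell markers was below control 6 and control 10. Single markers above every control library in case 9 were Pparg (12.02 CPM), Retn (23.1) and Lipe (48.7). The other 6 tested fat cell markers, Adipoq among them, were not. Case 9 and these single markers were singled out after their values were seen. The part of fat cells in the Cfd values was not tested.

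Factor B and properdin, the other alternative route genes, pointed opposite ways with wide spread. Cfp, which encodes properdin, the stabiliser of the alternative convertase released by neutrophils and other myeloid cells, was at 131.1, 252.7 and 203.2 CPM in the case libraries and at 112.8, 173.5 and 136.9 in the controls. Cfb, which encodes factor B, was at 8.23, 19.5 and 23.03 CPM in the case libraries and at 9.37, 39.4 and 24.8 in the controls. Case 5 and control 5 were the lowest libraries in both Cfb and Cfp. Without control 6 the log2 fold change of Cfb moved from -0.54 to 0.011.

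**Figure D5:**
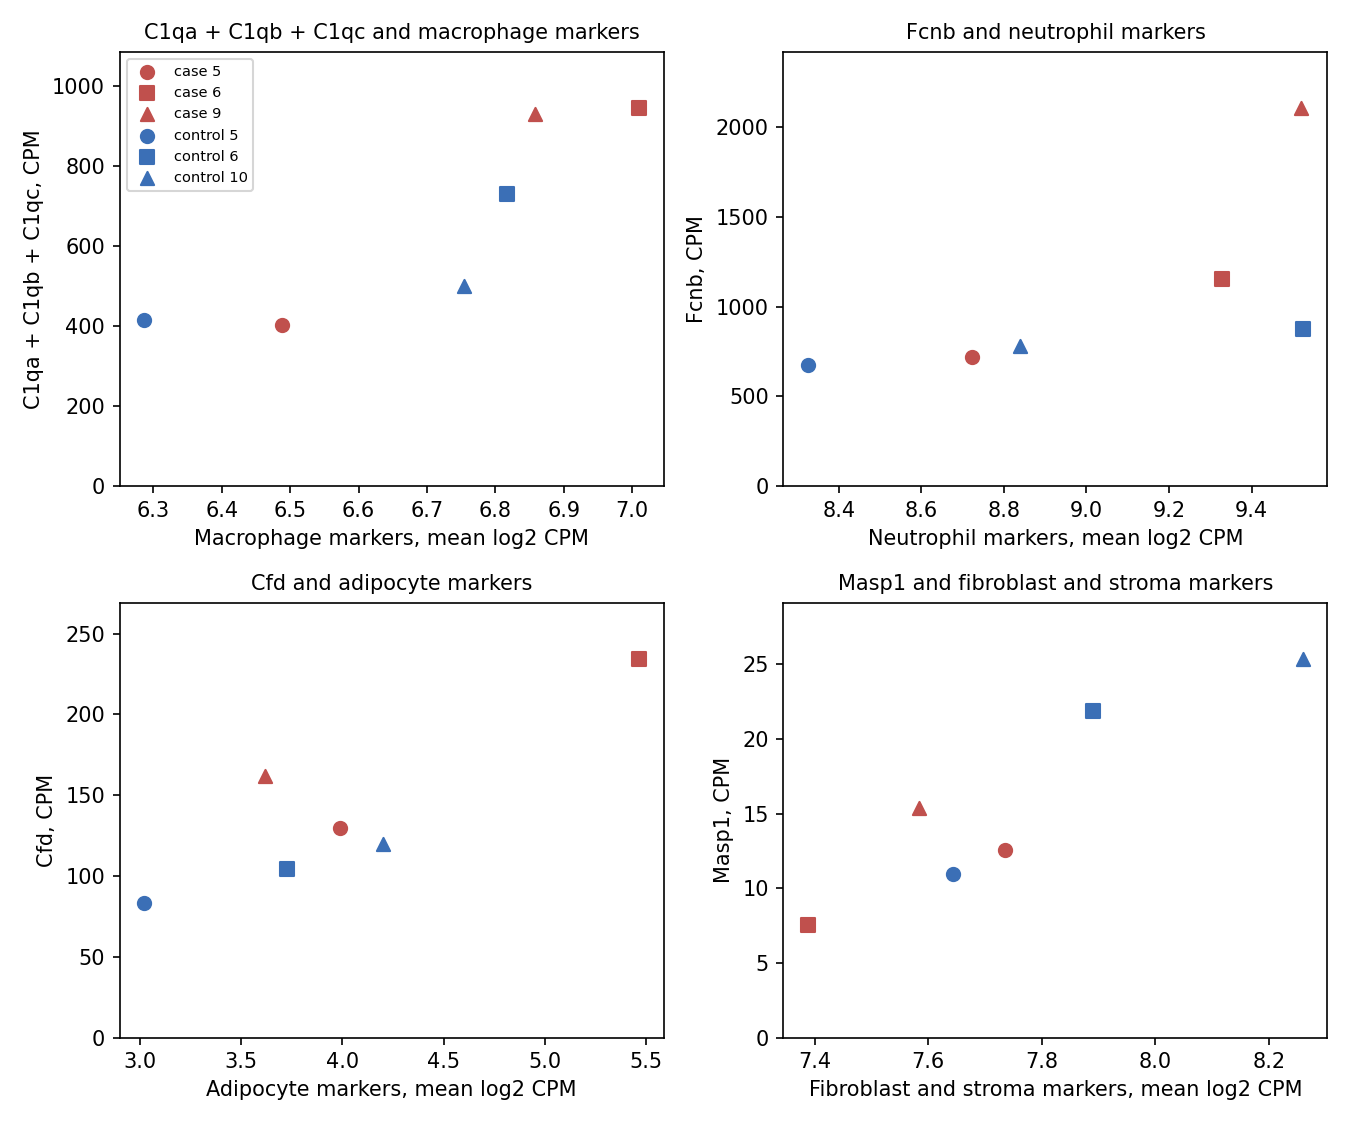
Level of the summed C1q chains, Fcnb, Cfd and Masp1 in CPM against the mean log2 CPM of macrophage, neutrophil, fat cell and stromal markers, 1 point per library, with case in red and control in blue. Case 6 is far right in fat cell markers (5.46) and highest in Cfd, and case 9 is highest in Fcnb (2103 CPM). The neutrophil mean is 9.52 in case 9 and in control 6. It joins Mpo, Elane and Prtn3, higher in case 9 than in control 6, with other markers, some higher and some lower there. Mpo, Elane and Prtn3 are not plotted singly, and they and this pair of libraries were singled out after their values were seen.

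Transcripts of the terminal pore were present for some subunits and nearly missing for others. C7, which lets the growing complex enter the membrane, was at 220.03, 187.5 and 187.3 CPM in the case libraries and at 209.6, 164.7 and 265.2 in the controls. C6, which binds C5b, was at 22.9, 86.9 and 48.6 CPM in the case libraries and at 42.8, 19.8 and 57.1 in the controls, a range of 4.38-fold that crossed the groups. C8g, the gamma chain of C8, was at 4.01 to 7.59 CPM with control 10 the highest. C5, whose product starts the pore, had 9, 6 and 9 counts in the case libraries and 0, 6 and 4 in the controls. C8a had 1 count in all, in control 10, C9 had 4, all in control 5, and C8b had 0 in every library, a limit of 3 counts, or 0.2 to 0.274 CPM, by counting error alone. A listed 0 in this table is no firm bound, since Hprt1, which every cell uses, had 0, 118 and 71 counts in the case libraries and 0, 0 and 1 in the controls. Of 10 liver markers 4 passed the filter on low counts. Alb was at 0.0841 to 2.71 CPM, whereas Tf was at 1132 to 3790 and Hp at 165.9 to 594.9. Serpina1, the highest of the others, was at 0.700 to 4.15 CPM.

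Receptors for the peptides differed in how evenly they were spread. C5ar1, the receptor through which C5a draws in neutrophils, was at 69.99, 97.5 and 111.6 CPM in the case libraries and at 55.8, 93.2 and 67.1 in the controls. C5ar2, the other C5a receptor, which does not couple to G proteins, was at 63.9, 54.6 and 56.5 CPM in the case libraries and at 69.0, 73.4 and 65.3 in the controls. The groups did not overlap in C5ar2 (58.3 ± 4.92 against 69.2 ± 4.09 CPM; log2 fold change -0.25, SE 0.13, unadjusted edgeR p 0.106, adjusted p 0.999). C5ar1 and C5ar2 lie side by side in the genome, and C5ar2 stood to C5ar1 as 0.506 in case 9 and as 1.24 in control 5. C3ar1, the C3a receptor, was at 8.71, 13.97 and 7.06 CPM in the case libraries and at 8.14, 9.76 and 9.51 in the controls.

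Among receptors that bind C3 fragments on surfaces, Itgam (CD11b, of complement receptor CR3) was at 233.4, 278.99 and 320.5 CPM in the case libraries and at 149.2, 313.4 and 217.3 in the controls. Itgax (CD11c, of complement receptor CR4) was at 66.2, 74.6 and 55.4 CPM in the case libraries and at 66.2, 57.9 and 55.8 in the controls, one of 4 complement genes whose highest library was under 1.5 times the lowest. Itgb2, the beta chain that both need, was at 235.5, 363.9 and 307.3 CPM in the case libraries and at 144.3, 282.3 and 193.1 in the controls. Control 5 was lowest in Itgam and Itgb2 and the neutrophil markers. Vsig4, a receptor of resident macrophages for C3b, had 1 to 13 counts in a library and was not tested. The 250 bases before Itgam, the integrin of myeloid cells, are shown as an example with both GAGGAA and TTCNNNGAA in capitals.
Itgam (GRCr8 chr1:192089342-192089591, plus strand): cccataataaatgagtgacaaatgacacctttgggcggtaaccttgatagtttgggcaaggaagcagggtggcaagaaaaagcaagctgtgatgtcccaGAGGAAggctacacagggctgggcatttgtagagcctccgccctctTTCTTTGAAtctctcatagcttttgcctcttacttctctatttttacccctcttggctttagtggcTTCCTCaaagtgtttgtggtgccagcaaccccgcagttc
GAGGAA matched here at -151 to -146 on the plus and -39 to -34 on the minus strand, and TTCNNNGAA at -105 to -97.

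Among the 6 tested regulators the highest library exceeded the lowest by 1.29-fold (Cd59) to 3.60-fold (Cd46). Cd59, which stops C9 from completing the pore, was at 128.4, 117.5 and 121.8 CPM in the case libraries 5, 6 and 9 and 143.1, 151.99 and 148.1 in the control libraries 5, 6 and 10. The groups stood apart with a small spread, at 122.6 ± 5.47 against 147.7 ± 4.45 CPM (log2 fold change -0.27, SE 0.13, or 1.21-fold lower in case, unadjusted edgeR p 0.0666, adjusted p 0.999). Over the fits that left out 1 library it ran from -0.29 to -0.22. Cd55, which speeds the decay of the convertases, was at 35.9, 19.5 and 22.4 CPM in the case libraries and at 33.7, 26.1 and 24.1 in the controls, and both numbered-5 libraries were the highest. Cd46, a cofactor for the cleavage of C3b that rodents make mainly in the testis, was at 0.665 to 2.40 CPM, and Cfi, the protease it serves, had 1 to 11 counts in a library and was not tested. Clu, a chaperone that binds terminal complexes, was at 115.8, 118.8 and 152.6 CPM in the case libraries and at 96.9, 156.0 and 172.1 in the controls. C1qbp, a mostly mitochondrial protein that can bind the heads of C1q, was at 82.2, 127.4 and 129.9 CPM in the case libraries and at 93.05, 97.99 and 122.5 in the controls. The groups overlapped in Cd55, Cd46, Clu, C1qbp and Serping1.

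No library stood highest throughout. Of the 29 tested genes, case 6 was highest in 8 (C1qb, C1qc, Fcna, Cfd, Cfp, C6, C3ar1 and Itgax) and case 9 in 8 (C1qa, C2, Fcnb, C3, C5ar1, Itgam, Serping1 and C1qbp). Control 10 was highest in 7 (C1r, C1s, C4b, Masp1, C7, C8g and Clu), control 6 in 4, case 5 in 2 and control 5 in 0. Control 5 was the lowest library in 11 of the 29 and case 6 in 7. In 16 of the 29 the highest library was over 2 times the lowest.

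Other genes of the system came from a further list of 31 symbols, of which 30 had a row and 16 could be tested. By edgeR 0 of the 16 passed (0% of all genes), and 2 had an unadjusted p under 0.05 (4.15% of all genes), 1 in each direction. DESeq2 called 0 (0.131% of all genes) and gave 2 at an unadjusted p under 0.05 (4.6% of all). Limma-voom called 0 (0% of all genes) and gave 2 (3.65% of all). Their median log2 fold change was -0.038, and the groups did not overlap in 4 of the 16 (Cr1l, Cr2, Scarf1 and Colec12; 8.47% of all genes). Cr2, a receptor of B cells for C3 fragments, was at 9.35, 9.11 and 5.80 CPM in the case libraries and at 5.78, 4.72 and 3.66 in the controls, apart between the groups by a narrow margin (log2 fold change 0.78, SE 0.31, unadjusted edgeR p 0.0369). All 7 tested B and plasma cell markers were positive as well, with a median of 0.83, where 53.7% of all genes were negative. In mean log2 CPM these markers were at 4.69, 4.04 and 4.40 in the case libraries and at 3.87, 4.22 and 2.96 in the controls, so the groups overlapped. The part of B cells in Cr2 was not tested. Colec12, a scavenger receptor with a lectin domain, was at 139.2, 131.8 and 113.3 CPM in the case libraries and at 162.4, 148.5 and 203.5 in the controls (log2 fold change -0.42, SE 0.17, unadjusted edgeR p 0.0418). Its log2 fold change was -0.24 without control 10 and -0.20 with the title number as a block. Cr1l, the rodent membrane regulator Crry, was at 94.6, 98.5 and 108.7 CPM in the case libraries and at 77.5, 89.7 and 90.8 in the controls, and Scarf1, a scavenger receptor that binds C1q, at 28.04, 29.7 and 26.6 in the case libraries and 24.0, 21.6 and 22.8 in the controls. Calr, a chaperone that also binds C1q, was at 895 to 1452 CPM, Thbd at 39.8 to 104.1, Cd93, a surface protein of endothelium and myeloid cells, at 33.6 to 87.7 and C1rl at 25.1 to 46.6, all with overlapping groups. The lectin genes Mbl1 and Mbl2 had at most 3 and 0 counts in a library.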

How the data were processed

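The deposited file lists, for each gene symbol, a whole-number count in each of the 6 libraries; its values give no sign that the authors normalized them. Per the labels' protocols, total RNA was isolated with TRIzol and single-end libraries came from the Ion Total RNA-Seq Kit v2.0; aligner, counter, build, annotation and strand handling are not stated in those sources, so genes with near-identical copies or overlapping neighbours are uncertain. Columns were matched to libraries by title. A count of 0 allows up to 3 counts, for counting error alone.

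Genes were filtered with filterByExpr (16066 kept), scaled by TMM, and compared by edgeR's quasi-likelihood test (edgeR 4.0.16, R 4.3.3) with group as the only term and Benjamini-Hochberg adjustment over all tested genes at 0.05. SE is the log2 fold change divided by the root of F. Log2 CPM used a prior count of 2. On simulated counts for these 16066 genes in the same comparison, the share of changes recovered was 9.55% for 2-fold, 61.8% for 4-fold and 87.0% for 8-fold ones. The complement genes and lists were chosen with earlier results of these data known; all 36 are accounted for, and of the further list the 6 most abundant and the 6 with the smallest p are named; 1 gene of that list is not reported here and was left out of its counts. Marker lists had 8 to 12 genes per cell type and their symbols were used as the table gives them. Alternatives were other scalings and filters, DESeq2 1.42.0, limma-voom (limma 3.58.1), fits that dropped 1 library, and a block on the title number; leaving out both libraries numbered 5 was chosen after seeing the data. Promoter windows came from RefSeq (GRCr8) and matched 24 of the 36 genes; 35 matched a current RefSeq symbol and Cd59 a synonym. Windows were aligned with Biopython 1.88.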

Additional observations from a re-analysis of the deposited data

How the results depend on the processing

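No complement gene passed at an adjusted p under 0.05 in any of the 15 other fits. Over all genes DESeq2 called 21, and the fits that left out 1 library called 0 to 2. The complement genes with a negative log2 fold change numbered 9 to 14 in the fits without 1 library, against 14 of 29, and their median ranged from 0.0047 without case 9 to 0.18 without control 10. Several differences changed sign in some fits, and not only small ones. Among them were C4a (-0.89 in the main fit), Cfb (-0.54), C4b (-0.44) and C6 (0.41). By library totals C1r was 0.026 and C8g 0.031; C8g was 0.00094 by DESeq2 and 0.042 by limma-voom. Leaving out 1 library gave ranges across 0 for C1r (-0.13 to 0.15), C2 (-0.11 to 0.38), C4b (-1.19 to 0.092), Cfb (-0.92 to 0.011), C6 (-0.16 to 0.79), C7 (-0.23 to 0.12), C8g (-0.16 to 0.36), C3ar1 (-0.21 to 0.31), Serping1 (-0.45 to 0.020), Cd46 (-0.66 to 0.19), Cd55 (-0.39 to 0.059), Clu (-0.34 to 0.062) and Calr (-0.069 to 0.31); each such fit holds fewer samples. The titles share the numbers 5 and 6. Deviations from the group means correlated, across genes, at 0.38 between the libraries numbered 5 and at 0.14 between those numbered 6. Of pairs with different numbers, case 9 and control 6 were at 0.28 and case 6 and control 10 at 0.14. The remaining pairs ran from -0.34 (case 5 and control 6) to 0.10 (case 9 and control 10), so the number 5 pair was the highest. The labels do not say what the number marks, so it was not taken as a pairing. With the number as a replicate block, which leaves case 9 and control 10 without a partner, 0 genes were called and C1qa was -0.039, C1r 0.082, C2 -0.024, C4a 0.32, C7 0.13, C8g 0.48 and Calr -0.015; the cause was not tested.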
